A study of Homo sapiens with 8 samples.

Results

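EGFL7, the gene that carries miR-126 in an intron, and 9 genes published from other work as direct targets of miR-126 (PIK3R2, CRK, CRKL, IRS1, TOM1, PTPN9, LRP6, TWF1 and GOLPH3) were followed probe by probe in human breast cancer cells. Of these 10 genes, 8 had probes in the platform annotation, leaving out probes assigned to several genes, while PIK3R2 and CRK were not analysed here. Those 8 genes had 12 of 48790 probes on Illumina bead arrays and 19 of 52812 probe sets on Affymetrix arrays. The study measured total RNA on 8 arrays, 2 for each of 4 groups. On the Illumina arrays, LM2, a highly metastatic derivative of the breast cancer line MDA-MB-231, was set against MDA-MB-231 itself, which is labelled poorly metastatic. On the Affymetrix arrays, LM2 cells over-expressing miR-126 (called LM2 miR-126) were set against LM2 control cells. All groups were grown in DMEM with serum. The labels do not say how miR-126 was introduced, what the control cells carried or whether each array (A or B) had its own culture. The p-values therefore measure only the spread between these arrays, which may be technical. The fit also drew the spread of each probe toward that of all probes of similar level.

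A microRNA guides a repressor complex to messenger RNAs that pair with its seed, bases 2 to 8 from its 5′ end, which lowers their translation and often their amount. miR-126 is processed from an intron of EGFL7, a secreted protein made by endothelial cells, and is known best for its part in blood vessels. Its published targets act in receptor signalling (PIK3R2, CRK, CRKL, IRS1, LRP6 and PTPN9), in traffic between membranes (TOM1 and GOLPH3) and on the actin cytoskeleton (TWF1). In work on these metastatic lines, miR-126 is known as a suppressor of metastasis that is lower in the metastatic derivatives.

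The sequences that define the over-expressed RNA were taken from RefSeq (GRCh38.p14). They are shown because the pairing of this seed is what the 9 genes were published for. The mature strand hsa-miR-126-3p lies at chr9:136670653-136670674 and hsa-miR-126-5p at chr9:136670616-136670636, both on the plus strand, and capitals mark the seeds.
hsa-miR-126-3p: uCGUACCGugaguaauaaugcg
hsa-miR-126-5p: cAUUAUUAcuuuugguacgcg
In the hairpin, at chr9:136670602-136670686 on the plus strand and within the span of EGFL7, capitals mark both mature strands.
MIR126 hairpin: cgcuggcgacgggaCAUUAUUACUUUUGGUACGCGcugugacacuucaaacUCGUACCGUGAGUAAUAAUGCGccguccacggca
No other mature microRNA of the 2370 names in the RefSeq table shared the seed of either strand, and a full match to the 3p seed in a messenger RNA reads CGGUACG. No messenger RNA sequences were used here, so sites in the targets were not searched.

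The arrays limit what could be seen. Averaged over all probes, the 2 LM2 miR-126 arrays differed by 0.226 log2 and the 2 LM2 control arrays by 0.109 log2, while the group means were 0.139 log2 apart. The LM2 arrays differed by 0.145 log2 and the MDA-MB-231 arrays by 0.17 log2, while their means were 0.14 log2 apart. Vimentin (VIM), the intermediate filament of mesenchymal cells, was bright on both platforms, at 35650 and 32250 in LM2 and 29190 and 25570 in MDA-MB-231 on its brighter Illumina probe and at 183 and 173 in LM2 miR-126 and 186 and 189 in LM2 control cells at 201426_s_at. The Illumina probes of the oestrogen receptor ESR1 (89.4 and 80.0 in LM2, 83.0 and 88.8 in MDA-MB-231) and the progesterone receptor PGR (74.1 and 79.4 in LM2, 83.8 and 71.6 in MDA-MB-231) lay under the median of all probes, 94.39. Of the receptor and epithelial markers listed as likely dim in these cells (ESR1, PGR, ERBB2 and EPCAM), 3 of 7 Illumina probes and 7 of 15 Affymetrix probe sets lay above the median, and none was called. Among the 3, EPCAM ILMN_2160210 had 874 and 621 in LM2 and 2049 and 1074 in MDA-MB-231 (log2 change -0.99, adjusted p = 0.226). Markers of endothelial cells, the usual source of EGFL7, were 10 genes with 15 Illumina probes and 20 Affymetrix probe sets. Of these, 7 and 10 lay above the median, none was listed at 0 and none was called in either comparison. Their summed level was 2195 and 2305 in LM2 and 1690 and 2720 in MDA-MB-231, and 24.7 and 27.0 in LM2 miR-126 and 29.2 and 29.3 in LM2 control cells. Of the mesenchymal line markers, VIM among them, all 11 Illumina probes and 18 of 21 probe sets lay above the median. None was called, with Illumina changes from -0.99 to 0.61 log2. Of 11 Illumina probes of fibroblast markers 1 was called, higher in LM2 (against 0.334% of all probes). The largest change of that list was 1.94 log2 and its smallest adjusted p 5.92e-05. No fibroblast probe set and no blood marker was called.

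The first question was whether the messenger RNAs of the host gene and the published targets were lower when miR-126 was over-expressed in LM2. None of the 19 probe sets passed the threshold, an adjusted p of 0.05 with limma over all probe sets. In simulated data, 7 of 100 probe sets changed 2-fold were recovered at this threshold, so in that setting most changes of that size went uncalled. The simulation gave both groups the same spread, unlike these arrays, and changed only probe sets above the median. At the same threshold no probe set of the whole table passed (0% of 52812), while 7.7% had an unadjusted p under 0.05, as did 1 of the 19. Of the 19 changes, 10 were below and 9 above 0, with a median of -0.002 log2, against 0.010 over all probe sets. The median size of a change was 0.095 log2, against 0.101 over all probe sets. In 5 of the 19 probe sets (26.3%) the deposited values of the groups did not overlap, as was so for 36.6% of all probe sets. Of these 5, the LM2 miR-126 arrays were higher at 3 (against 18.3% of all probe sets) and lower at 2 (against 18.2%).

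**Figure D1:**
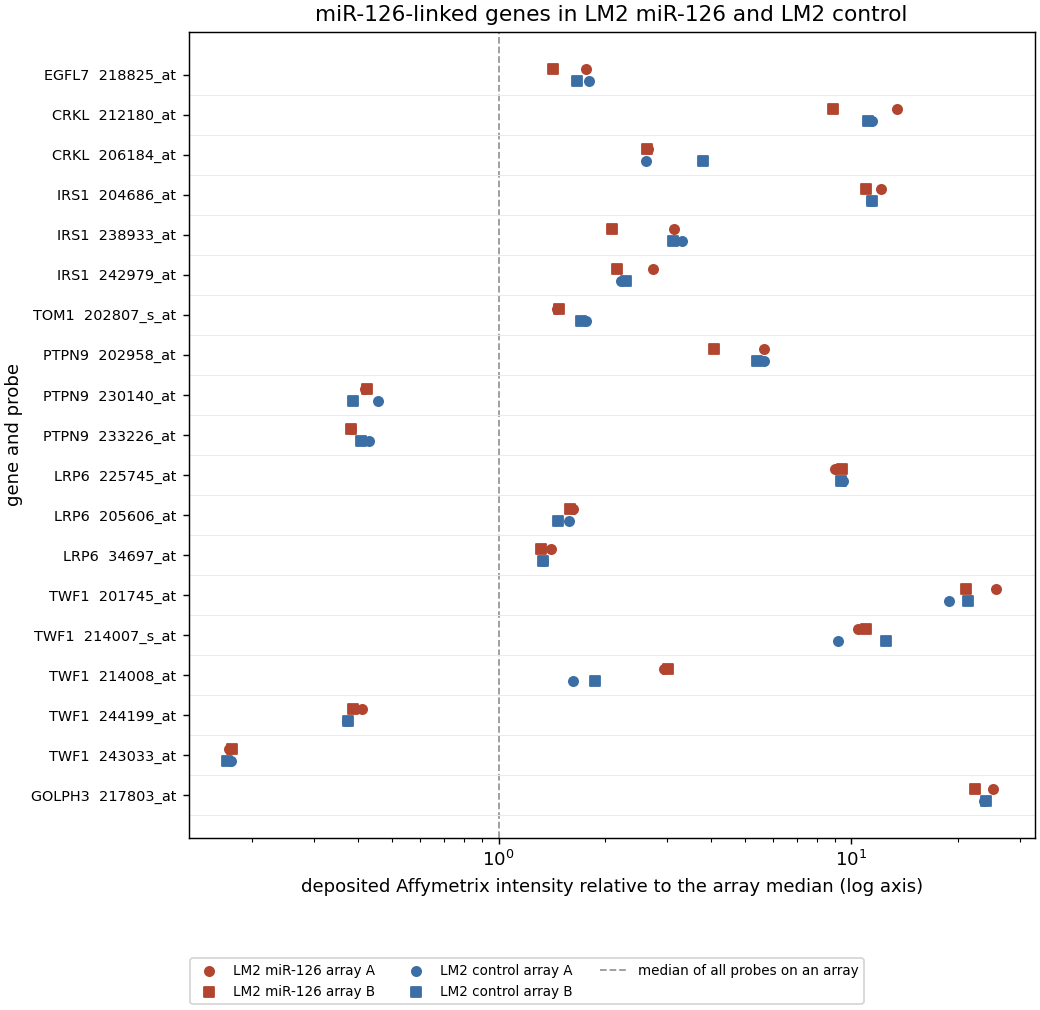
Deposited Affymetrix intensity, relative to each array's median of 1, on a log axis, for the 19 probe sets of the 8 genes in LM2 miR-126 cells (red) and LM2 control cells (blue), with arrays A as circles and B as squares. The groups stand clear of each other at TWF1 214008_at, with 2.95 and 3.03 in LM2 miR-126 cells and 1.62 and 1.87 in LM2 control cells, while at most other probe sets they overlap or lie close.

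The host gene EGFL7 had 1 probe set, 218825_at, with deposited intensities of 1.77 and 1.42 in LM2 miR-126 cells and 1.80 and 1.67 in LM2 control cells. The groups overlapped, and the log2 change was -0.12 (95% interval -0.47 to 0.24, adjusted p = 0.889).

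CRKL, an adaptor that links phosphorylated receptors and scaffolds to small GTPase activators, had 13.4 and 8.88 in LM2 miR-126 cells and 11.5 and 11.2 in LM2 control cells at its brighter probe set, 212180_at. One LM2 miR-126 array lay above and the other below both control arrays, with a log2 change of -0.033 (95% interval -0.43 to 0.36, adjusted p = 0.981). The second CRKL probe set, 206184_at, stood at 2.65 and 2.63 in LM2 miR-126 cells and at 2.62 and 3.79 in LM2 control cells. Its lower mean in LM2 miR-126 cells (log2 change -0.22, adjusted p = 0.833) came with control arrays that lay apart, and it was 0.029 without control array B.

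IRS1, the docking protein that couples insulin and IGF receptors to PI3K, had 12.1 and 11.0 in LM2 miR-126 cells and 11.4 and 11.5 in LM2 control cells at 204686_at. The control values lay between those of the miR-126 arrays, with a log2 change of 0.029 (95% interval -0.26 to 0.32, adjusted p = 0.976). At 238933_at IRS1 had 3.14 and 2.10 in LM2 miR-126 cells and 3.32 and 3.11 in LM2 control cells, a log2 change of -0.30 (95% interval -0.76 to 0.16, adjusted p = 0.744). This value rested on array B of LM2 miR-126. It was -0.52 (adjusted p = 0.0343) without array A, where 8.42% of all probe sets passed, and -0.080 (adjusted p = 0.735) without array B. At 242979_at IRS1 had 2.73 and 2.16 in LM2 miR-126 cells and 2.23 and 2.30 in LM2 control cells, with a log2 change of 0.13 (adjusted p = 0.858). The 3 IRS1 probe sets thus had no common direction.

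LRP6, the co-receptor through which Wnt proteins stabilise beta-catenin, had 8.99 and 9.38 in LM2 miR-126 cells and 9.49 and 9.34 in LM2 control cells at its brightest probe set, 225745_at. The groups overlapped, with a log2 change of -0.020 (95% interval -0.39 to 0.35, adjusted p = 0.988). The other LRP6 probe sets stood at 0.095 (205606_at) and 0.039 (34697_at). PTPN9, a tyrosine phosphatase of secretory vesicles, had 5.65 and 4.08 in LM2 miR-126 cells and 5.66 and 5.42 in LM2 control cells at 202958_at. Array A of LM2 miR-126 lay between the control values and array B below them, with a log2 change of -0.18 (95% interval -0.55 to 0.18, adjusted p = 0.804). Its other probe sets, 230140_at (-0.002) and 233226_at (-0.14), lay below the median of all probe sets.

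TOM1, an adaptor for endosomal sorting, had 1.46 and 1.48 in LM2 miR-126 cells and 1.77 and 1.72 in LM2 control cells at its 1 probe set, 202807_s_at. The arrays within each group were close and the groups did not overlap, but the log2 change of -0.22 (95% interval -0.51 to 0.062) had an adjusted p of 0.704. GOLPH3, a Golgi protein that binds phosphatidylinositol 4-phosphate, had 25.2 and 22.3 in LM2 miR-126 cells and 23.7 and 24.1 in LM2 control cells at 217803_at. Its groups overlapped, with a log2 change of -0.008 (95% interval -0.25 to 0.24, adjusted p = 0.994).

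TWF1 encodes twinfilin-1, which binds actin monomers and caps filament ends. It had the most probe sets of the 8 genes, 5, and none of them had a negative change. At 214008_at the intensity was 2.95 and 3.03 in LM2 miR-126 cells and 1.62 and 1.87 in LM2 control cells, so both miR-126 arrays were above both control arrays. The log2 change was 0.82 (SE 0.144, 95% interval 0.46 to 1.18), with an adjusted p of 0.539. It was 0.92 (adjusted p = 0.0086) without array A of LM2 miR-126 and 0.71 (adjusted p = 0.0157) without array B, settings in which 8.42% and 8.92% of all probe sets passed.

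The brighter probe sets of TWF1 gave smaller changes. At 201745_at the intensity was 25.7 and 21.2 in LM2 miR-126 cells and 19.0 and 21.4 in LM2 control cells, with overlapping deposited values and a log2 change of 0.22 (95% interval -0.046 to 0.49, adjusted p = 0.69). At 214007_s_at it was 10.4 and 11.0 in LM2 miR-126 cells and 9.15 and 12.6 in LM2 control cells, with a log2 change of 0.010 (adjusted p = 0.997). The changes at 244199_at (0.091) and 243033_at (0.029), both below the median level, were also small. The value at 214008_at was therefore not shared by the other TWF1 probe sets.

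The intervals describe the size of a change only against the spread between these arrays, with each probe drawn toward probes of similar level. That spread may be technical. The intervals do not cover spread between cultures if the arrays of a group shared a culture. For all 19 probe sets the 95% interval lay above a 2-fold lower level in LM2 miR-126 cells, and for 17 of them above a 1.5-fold lower level. The exceptions at 1.5-fold were CRKL 206184_at, with an interval of -0.71 to 0.27, and IRS1 238933_at. These intervals are not adjusted for the number of probe sets and apply to messenger RNA, not to protein. In 11 of the 19 probe sets the difference between arrays A and B of LM2 miR-126 exceeded the change between the groups. Over all probe sets that difference averaged 0.226 log2 and the change 0.139 log2, and the share of them where it exceeded the change was not counted. The measures are unlike, since the difference compares single arrays and the change compares means of 2 arrays.

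**Figure D2:**
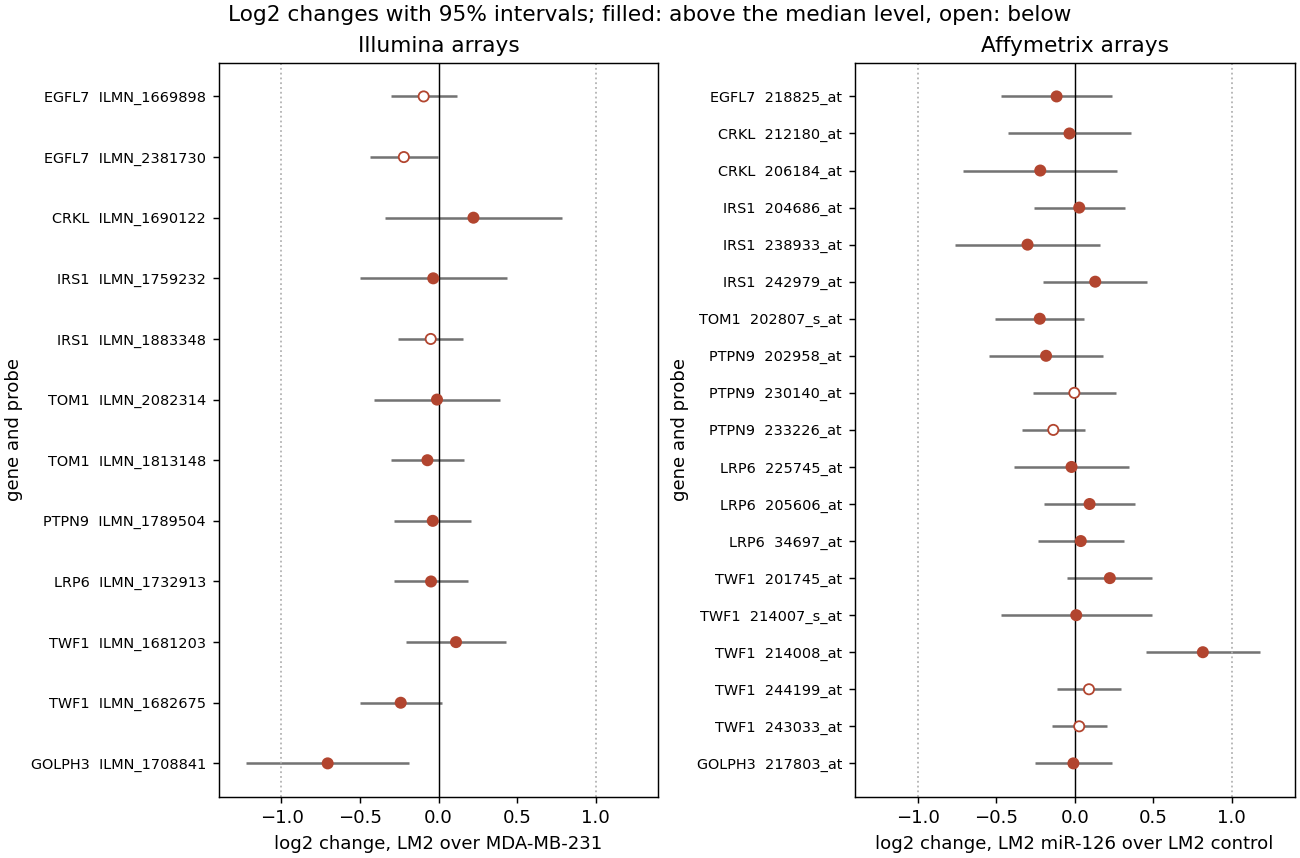
Log2 change with its 95% interval for each probe, LM2 over MDA-MB-231 on the Illumina arrays (left) and LM2 miR-126 over LM2 control on the Affymetrix arrays (right), with dotted lines at a 2-fold change. The intervals that lie clear of 0 are those of GOLPH3 (-0.71) and EGFL7 ILMN_2381730 (-0.22) on the left and TWF1 214008_at (0.82) on the right, and none of these passed after adjustment.

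The second question was whether the same genes differed between LM2 and MDA-MB-231. None of the 12 Illumina probes passed, against 0.859% of all 48790 probes. At an unadjusted p under 0.05 there were 2 of the 12, against 8.83% of all probes. Of the 12 changes, 10 were below 0 and 2 above, with a median of -0.049 log2 against -0.009 over all probes, and a median size of 0.083 log2 against 0.094. The deposited values of the groups did not overlap at 6 of the 12 probes (50%), against 38.1% of all probes. Of these 6, LM2 was higher at 2 (against 17% of all probes) and lower at 4 (against 21.1%). Illumina changes are on the log2(value + 16) scale and include background that was not subtracted, which understates them for dim probes.

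**Figure D3:**
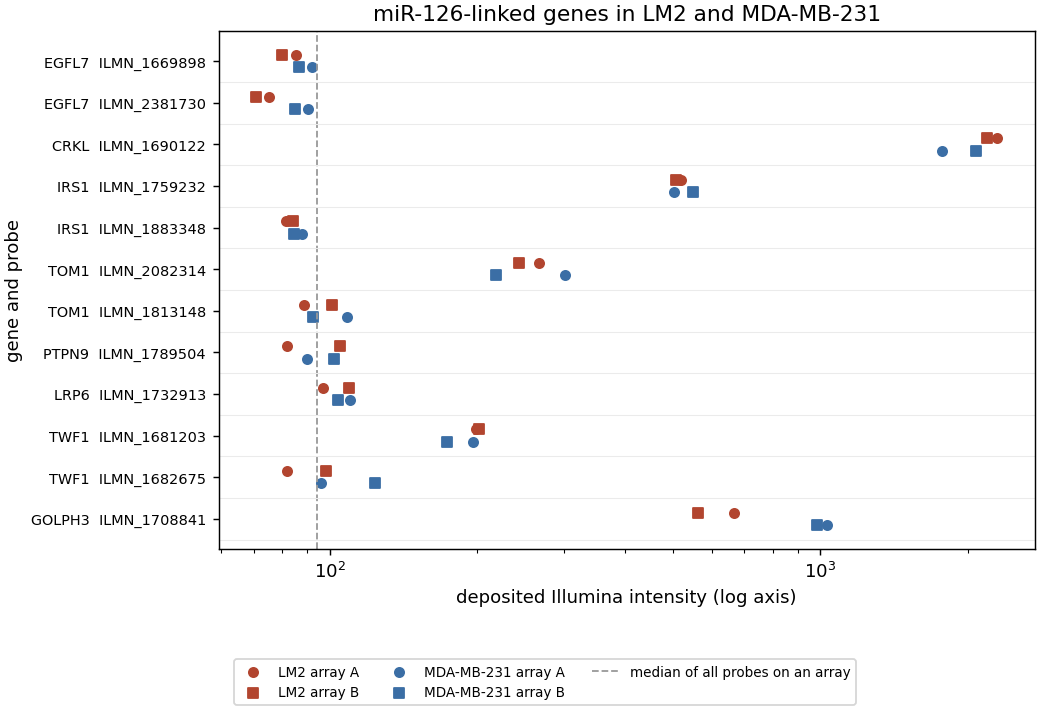
Deposited Illumina intensity on a log axis for the 12 probes of the 8 genes in LM2 (red) and MDA-MB-231 (blue), with arrays A as circles and B as squares. GOLPH3 stood at 666 and 563 in LM2 and at 1033 and 986 in MDA-MB-231, and both EGFL7 probes lay left of the dashed line at the median of all probes, 94.39.

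GOLPH3 had the largest difference of the 8 genes. Its probe ILMN_1708841 had an intensity of 666 and 563 in LM2, against 1033 and 986 in MDA-MB-231. Both LM2 arrays were below both MDA-MB-231 arrays, and the means of log2 levels were 9.30 ± 0.17 in LM2 and 10.00 ± 0.046 in MDA-MB-231 (SD, n = 2 each). The log2 change was -0.71 (SE 0.245, 95% interval -1.23 to -0.19), 1.63-fold lower in LM2, with an adjusted p of 0.314. Under a variance prior without a trend in level, the SE was 0.119 and the adjusted p 0.0622. Over the alternative settings the change ran from -0.82 to -0.59 and the adjusted p from 0.0622 to 0.884. On the other platform GOLPH3 stood at -0.008 in LM2 miR-126 against LM2 control cells. The comparisons share no array.

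EGFL7 was dim in both lines on the Illumina arrays, while its Affymetrix probe set, 218825_at, lay above the median of all probe sets. Probe ILMN_2381730 had an intensity of 75.3 and 70.7 in LM2, against 90.5 and 84.9 in MDA-MB-231, with a log2 change of -0.22 (95% interval -0.43 to -0.006, adjusted p = 0.545). Probe ILMN_1669898 had 85.3 and 80.1 in LM2, against 92.2 and 86.7 in MDA-MB-231, with a log2 change of -0.095 (adjusted p = 0.868). The groups did not overlap at either probe, with LM2 lower at both. All 8 of these values lay under the median of all probes.

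Among the signalling genes, CRKL was 2295 and 2186 in LM2 and 1772 and 2077 in MDA-MB-231. Both LM2 arrays were higher, yet the log2 change of 0.22 (95% interval -0.34 to 0.79) had an adjusted p of 0.889. IRS1 stood at 519 and 508 in LM2 and at 504 and 550 in MDA-MB-231 at ILMN_1759232, with a log2 change of -0.034 (95% interval -0.50 to 0.43, adjusted p = 0.987). Its second probe, ILMN_1883348, was below the median level and had a change of -0.050.

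LRP6 and PTPN9 lay near the median of all probes. LRP6 had 96.8 and 110 in LM2 and 110.1 and 104 in MDA-MB-231, a log2 change of -0.048 (adjusted p = 0.955). PTPN9 had 82.0 and 105 in LM2 and 89.7 and 102 in MDA-MB-231, a log2 change of -0.037 (adjusted p = 0.97). For both, the groups overlapped.

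TOM1 had 267 and 243 in LM2 and 302 and 218 in MDA-MB-231 at its brighter probe, ILMN_2082314, where the LM2 values lay between those of MDA-MB-231. Its log2 change was -0.010 (95% interval -0.41 to 0.39, adjusted p = 0.995), and that of the dimmer probe ILMN_1813148 was -0.071. The 2 TWF1 probes pointed in opposite directions. ILMN_1681203 had 199 and 201 in LM2 and 196 and 173 in MDA-MB-231 (log2 change 0.11, adjusted p = 0.907). ILMN_1682675 had 81.8 and 98.3 in LM2 and 95.8 and 124 in MDA-MB-231 (log2 change -0.24, adjusted p = 0.618), with overlapping groups.

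**Figure D4:**
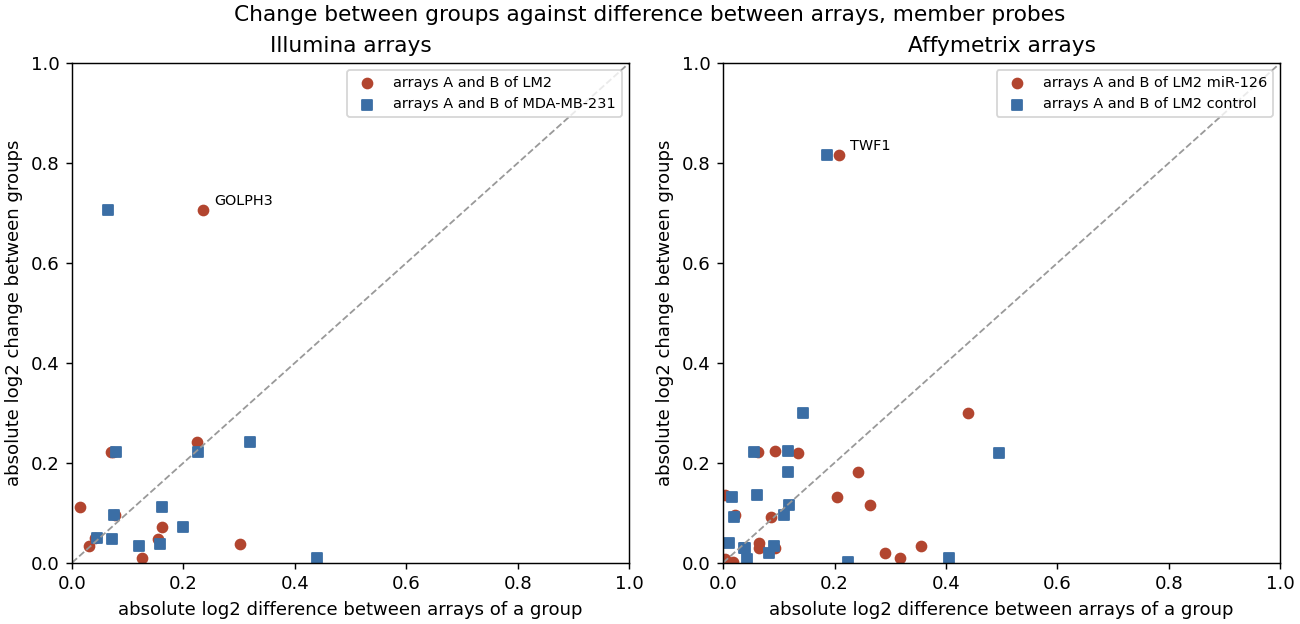
Absolute log2 change between groups (vertical) against the absolute log2 difference between arrays A and B of a group (horizontal), for the member probes, red for the LM2 and LM2 miR-126 pairs and blue for the MDA-MB-231 and LM2 control pairs, with a dashed line where both are equal. GOLPH3 on the Illumina arrays (0.71) and TWF1 214008_at on the Affymetrix arrays (0.82) lie well above the line, and all other changes are 0.30 or less.

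The pathways around the members were then described from lists of their partners. On the Illumina arrays, 5 of 193 probes in these lists passed, 2 higher (against 0.334% of all probes) and 3 lower (against 0.525%) in LM2. On the Affymetrix arrays none of 293 did. Where a gene had several probes, the value given is that of its probe with the smallest p. Shifts of a whole list were not tested, and a gene could count with several probes. The named probes of GAB2 and TNRC6A in LM2 and of AKT2, IRS4, NEDD9 and CFL1 with miR-126 lay below the median level.

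Calls of many, but not all, probes named here depended on the arrays fitted. The changes of the uncalled ones kept their sign with 1 array left out. For the called Illumina probes, the change then ran from 1.628 to 1.945 for CADM1, from -2.361 to -1.874 for DKK1 and from 0.535 to 0.736 for NOTCH3. It ran from -0.828 to -0.537 for PLK2 and from -0.795 to -0.505 for NEDD9. Without 1 LM2 miR-126 array, the spread within groups came from the control pair alone, which lay closer. Without array A of LM2 miR-126, 14 of the 22 Affymetrix probe sets named here from the lists passed, where 8.42% of all probe sets did. Without array B, 10 passed, where 8.92% of all did. Those 10 passed in both settings, for CADM1, SLC7A5, MERTK, PITPNC1, PXN, TCF7L2, CTNNB1, CAPZA2, PI4K2A and KLF2, while IGF1R, NEDD9, TOLLIP and HGS passed in the first alone. The 22 were named for their small p, so their share is not comparable with that of all probe sets. For the 14 uncalled Illumina probes named here, the change moved by unlike amounts with 1 array left out. The change ran from -0.74 to -0.075 for TOM1L2, from 0.25 to 0.83 for IGFBP2 and from -0.81 to -0.59 for ACTG1.

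Of 15 measured genes among 17 further miR-126 targets published from other cells, CADM1, a cell adhesion molecule of the immunoglobulin type, was higher in LM2. Its intensity was 343 and 333 in LM2 and 98.4 and 75.8 in MDA-MB-231 (log2 change 1.79, SE 0.152, adjusted p = 1.28e-05). PLK2, a kinase induced by stress, was lower, at 95.4 and 76.2 in LM2 and 131 and 164 in MDA-MB-231 (log2 change -0.68, SE 0.131, adjusted p = 0.0159). Its call was lost without LM2 array B (adjusted p = 0.213) and under a variance prior without a trend (adjusted p = 0.13). The median of these 25 probes was 0.033 log2.

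With miR-126 over-expressed, the CADM1 probe set of smallest p, 209032_s_at, was higher by value. It had 4.44 and 4.31 in LM2 miR-126 cells and 2.80 and 2.77 in LM2 control cells (log2 change 0.68, adjusted p = 0.539). CADM1 had other probe sets, whose values are not given here. SLC7A5, an importer of large neutral amino acids, stood at 19.6 and 9.66 in LM2 miR-126 cells and 29.4 and 27.4 in LM2 control cells (log2 change -1.04, adjusted p = 0.566). Leaving out either LM2 miR-126 array moved SLC7A5 to between -1.44 and -0.65. The median of the 37 probe sets of the list was 0.065 log2.

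MERTK, a receptor tyrosine kinase, PITPNC1, a phosphatidylinositol transfer protein, and IGFBP2, an IGF-binding protein, were linked to miR-126 by the study of these cells, so their direction is not independent evidence. Of their 9 Affymetrix probe sets, 8 had changes below 0 and none passed, with a median of -0.30 log2 against 0.010 over all probe sets. MERTK had 1.49 and 1.19 in LM2 miR-126 cells and 2.37 and 2.60 in LM2 control cells at 211913_s_at (log2 change -0.88, adjusted p = 0.539). PITPNC1 had 0.737 and 1.22 in LM2 miR-126 cells and 1.94 and 2.02 in LM2 control cells at 238649_at (log2 change -1.04, adjusted p = 0.56). In LM2 against MDA-MB-231, none of the 5 probes of these genes passed, with a median of 0.21 log2, and the smallest p belonged to PITPNC1 (0.70, adjusted p = 0.0639) and IGFBP2 (0.54, adjusted p = 0.128). PITPNC1 passed after quantile normalization (0.76, adjusted p = 0.0349) and with array B of MDA-MB-231 left out (0.90, adjusted p = 0.000625), but stood at 0.49 (adjusted p = 0.232) with array A left out. IGFBP2 passed with array A of MDA-MB-231 left out (0.63, adjusted p = 0.011) or array B of LM2 left out (0.83, adjusted p = 0.000404), but stood at 0.25 (adjusted p = 0.769) with array A of LM2 left out.

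Partners of the signalling members came next. Of the class I PI3K and AKT genes (12 of 15 measured) none passed in either comparison, with medians of -0.090 log2 over 25 Illumina probes and -0.005 over 36 probe sets. The smallest p belonged to the lipid phosphatase INPP4B (-0.78, adjusted p = 0.173) and the kinase PDPK1 (-0.33, adjusted p = 0.524) in LM2, and to AKT2 (-0.34, adjusted p = 0.594) and PIK3CB (0.31, adjusted p = 0.649) with miR-126. None of the 10 insulin and IGF receptor adaptor genes passed either, with medians of -0.018 and -0.037 log2. SOS1, an activator of RAS, stood at -0.52 (adjusted p = 0.0725) and the adaptor GAB2 at 0.25 (adjusted p = 0.509) in LM2. IRS4 stood at -0.25 (adjusted p = 0.629) and the receptor IGF1R at 0.36 (adjusted p = 0.702) with miR-126.

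Among 9 partners of the CRK adaptors, the docking protein NEDD9 was lower in LM2, and no other of the 23 probes passed (list median -0.035 log2). Its intensity at ILMN_1758719 was 105 and 123 in LM2, against 210 and 168 in MDA-MB-231 (log2 change -0.65, SE 0.143, adjusted p = 0.0412). A second probe, ILMN_2261076, had the same change, -0.65, with an adjusted p of 0.106, and the call of the first was lost in 7 of 12 other settings, with adjusted p from 0.000582 to 0.379 over all of them. With miR-126, NEDD9 stood at -0.64 (adjusted p = 0.56) and the focal adhesion protein PXN at -0.69 (adjusted p = 0.566). Of 27 probe sets for the 9 genes, 21 lay below 0, with a list median of -0.081 log2 against 0.010 over all probe sets.

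Around LRP6, the Wnt antagonist DKK1, which binds LRP6, was lower in LM2, and no other of the 25 probes of this list passed (median -0.049 log2). Its intensity was 2046 and 2284 in LM2, against 11170 and 7966 in MDA-MB-231 (log2 change -2.12, SE 0.264, adjusted p = 0.000427), and its second probe, ILMN_2174189, stood at -0.49 (adjusted p = 0.0698). In LM2 miR-126 cells DKK1 had 63.0 and 27.9, on either side of 40.6 and 45.5 in LM2 control cells (log2 change -0.024, adjusted p = 0.995). None of the 36 Wnt probe sets passed with miR-126 (median -0.062 log2). The transcription factor TCF7L2 stood at -0.83 (adjusted p = 0.539) and beta-catenin, CTNNB1, at 0.49 (adjusted p = 0.59).

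The partners in actin dynamics, Golgi lipids and endosomes had no call in either comparison. Of 17 Illumina probes for actin filament ends, 13 had changes below 0, with a list median of -0.16 log2. The median was -0.009 over all probes and -0.023 over those above the median level, where 16 of the 17 lay. Among the 13 were ACTG1 (-0.70, adjusted p = 0.106) and ACTB (-0.63, adjusted p = 0.125), the cytoplasmic actins. On the Affymetrix arrays the median was -0.024, with CAPZA2, a capping protein subunit, at 0.39 (adjusted p = 0.6). CFL1, the filament-severing protein cofilin, stood at -0.34 (adjusted p = 0.622) at the dim 236792_at, but at -0.094 (1555730_a_at), -0.092 (200021_at) and 0.11 (230870_at) at its other probe sets.

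Among the partners of GOLPH3, the myosin MYO18A, which binds it, stood at -0.69 (adjusted p = 0.0912) and the paralog GOLPH3L at 0.29 (adjusted p = 0.74) in LM2, with a median of 0.008 log2 over 9 probes. With miR-126, the kinase PI4K2A stood at -0.50 (adjusted p = 0.568) and the phosphatase SACM1L at 0.29 (adjusted p = 0.64), with a median of -0.23 log2 over 9 probe sets. Among the partners of TOM1, the medians were -0.13 and -0.085 log2. MYO6 stood at -0.48 (adjusted p = 0.323) and TOM1L2 at -0.41 (adjusted p = 0.628) in LM2. TOM1L2 rested on array B of MDA-MB-231, at -0.075 (adjusted p = 0.954) without it and -0.74 (adjusted p = 0.0475) without array A, and its other 2 probes stood at -0.18 (ILMN_1686261) and -0.16 (ILMN_1711109). MYO6 ran from -0.67 to -0.29 with 1 array left out and did not pass. With miR-126, TOLLIP stood at -0.37 (adjusted p = 0.621) and HGS at -0.26 (adjusted p = 0.705).

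Factors linked to the EGFL7 promoter and to Notch signalling had 1 call of 19 probes, the receptor NOTCH3, which was higher in LM2 (list median 0.14 log2). Its intensity was 143 and 122 in LM2 and 78.2 and 80.5 in MDA-MB-231 (log2 change 0.64, SE 0.11, adjusted p = 0.00758, and 0.0741 under a variance prior without a trend). With miR-126, the transcription factor KLF2 stood at 0.59 (adjusted p = 0.577) and the ligand JAG1 at 0.24 (adjusted p = 0.704). Of 38 probe sets for 12 genes, 30 lay above 0, with a list median of 0.10 log2 against 0.010 over all probe sets. Of the genes that make microRNAs or act with them, none passed, with medians of -0.014 and 0.026 log2. DICER1, which cuts the hairpin, stood at -0.53 (adjusted p = 0.435) and TNRC6A at 0.23 (adjusted p = 0.502) in LM2. With miR-126, DICER1 stood at 0.31 (adjusted p = 0.645) and TNRC6A at -0.41 (adjusted p = 0.566). The mature microRNA itself was not measured on either platform.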

How the data were processed

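The members and gene lists were chosen with earlier results of these data known. Each platform had 1 table of intensity values as the authors deposited them, for which no software or normalization is stated in the labels or headers. The deposited Illumina intensities had the same median (94.39) on each array and lowest values from 43.21 to 46.47, so background remains in them. The deposited Affymetrix intensities were relative to each array's median of 1. Labelling followed the standard protocol of each platform, per the labels' protocols. No scanner files or detection p-values were used, so no probe was called absent, and precision is limited by the few arrays.

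Probe names came from the annotation of each platform, with symbols updated by Entrez identifier. Of 48803 Illumina probes 28098 had 1 symbol, 13 several and 20692 none. The 54675 Affymetrix probe sets held 62 controls, and 41091 had 1 symbol, 1801 several and 11721 none. Controls and probes with several genes were left out. Illumina values, with a floor of 1, were converted to log2(value + 16) on the deposited scale. Affymetrix values were taken as log2 and quantile normalized.

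Every remaining probe was fitted with limma 3.58.1 in R 4.3.3 (lmFit, eBayes with a trend, two-sided), without a filter on level, with Benjamini-Hochberg adjustment over all probes and a threshold of 0.05. Overlap between groups was read from the deposited values. With 2 arrays a group, the smallest p of an exact permutation test is 0.3333. The steps were tested on simulated data, with 100 probes changed 2-fold and 100 changed 4-fold in each comparison. The changed probes lay above the median, and each probe had the same spread in both groups. In the Affymetrix comparison 7 of the 2-fold and 79 of the 4-fold changes were recovered, with 4 false calls. In the Illumina comparison 75 and 100 were recovered, with 7 false calls. All member probes were named. From each list, up to 4 called genes of smallest p were named, or the 2 of smallest p where none was called. Other probes of a named gene were added after their values were seen. Likeness of other genes to a member was not ranked, since 4 arrays cannot rank it. Figures were drawn with matplotlib 3.10.9.

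Alternatives covered the scaling, the pseudocount, a filter at the median, 1 probe a gene, the variance prior, the replicate letter as a block and each array left out. Deviations of arrays with the same letter correlated at 0.029 (Illumina) and -0.009 (Affymetrix), so the letters do not pair the arrays.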

Additional observations from a re-analysis of the deposited data

How the results depend on the processing

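No member probe passed under any setting run on the Illumina arrays, nor on the Affymetrix arrays except with a miR-126 array left out. There, 0 to 2 of 19 member probe sets passed, TWF1 214008_at without either miR-126 array and IRS1 238933_at without array A. Without LM2 miR-126 array A or B the whole table gave 4448 or 4711 called probe sets (range 0 to 4711) and the lists 56 or 41 (range 0 to 56), since the remaining miR-126 array is then assumed to vary like the close control pair. On the Illumina arrays the count of 419 called probes ran from 294 to 1289 when an array was left out, with 914 when array A of MDA-MB-231 was dropped and 1289 when its array B was, and the count of 5 list probes from 5 to 15. With the replicate block, the counts were 1075 called probes, 14 list probes and 0 member probes on the Illumina arrays, and 3 called probe sets, 0 list and 0 member probe sets on the Affymetrix arrays. A variance prior without a trend left 2 list probes called. Quantile normalization gave 194 higher and 189 lower Illumina probes, against 163 and 256 on the deposited scale. Without array B of LM2 the split was 184 higher and 121 lower, and 5 higher and 1 lower among list probes, against 2 and 3. With 1 probe a gene it was 105 higher and 184 lower of 12490 tested. In the remaining settings run, the total counts were within 1.5 times of the reported ones.

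Changes near 0 turned sign in some settings. Quantile normalization gave 0.078 for IRS1 ILMN_1759232 and 0.076 for TOM1 ILMN_2082314, and the deposited scale gave 0.005 for PTPN9 230140_at. With arrays left out, the ranges were -0.23 to 0.21 for TOM1 ILMN_2082314, -0.17 to 0.028 for TOM1 ILMN_1813148, -0.094 to 0.027 for IRS1 ILMN_1759232, -0.19 to 0.11 for PTPN9 ILMN_1789504 and -0.13 to 0.029 for LRP6 ILMN_1732913. On the Affymetrix arrays they were -0.21 to 0.14 for CRKL 212180_at, -0.47 to 0.029 for CRKL 206184_at, -0.19 to 0.21 for TWF1 214007_s_at, -0.003 to 0.061 for TWF1 243033_at, -0.029 to 0.014 for GOLPH3 217803_at, -0.17 to 0.13 for LRP6 225745_at, -0.11 to 0.11 for PTPN9 230140_at, -0.018 to 0.075 for IRS1 204686_at and -0.25 to 0.017 for EGFL7 218825_at.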
